A study of Mus musculus with 4 samples.

Results

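The 10 genes described here are transcription factors of the primitive streak and its derivatives (T, Mixl1, Eomes, Gsc and Lhx1) and components of the Nodal pathway (the ligand Nodal, its co-receptor Tdgf1 and the secreted inhibitors Lefty1, Lefty2 and Cer1). They were chosen by name, and all 10 were found among the 20284 genes of the deposited count tables. Gene expression was measured by droplet single-cell RNA sequencing in mouse embryoid bodies, which are aggregates of embryonic stem cells that differentiate in suspension, at day 9 of culture. The DUX-pulsed group held 2 libraries, made from embryonic stem cells in which DUX, a double-homeobox transcription factor of cleavage-stage embryos, had been expressed for a limited time before differentiation. The control group held 2 libraries from embryonic stem cells without the pulse. The series' design text describes 2 biological replicates for each group. The stem cell line, the length of the pulse and the number of aggregates pooled for a library are not given in the sources used here.

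The primitive streak is the site at which epiblast cells of the gastrulating embryo leave the epithelium and become mesoderm and definitive endoderm. Nodal, a TGF-beta family ligand, signals through activin receptors only where a co-receptor of the EGF-CFC family such as Tdgf1 (Cripto) is present, and SMAD2 and SMAD3 with FOXH1 then activate target genes. Lefty1, Lefty2 and Cer1 are targets of the pathway that also restrain it, and Eomes, Mixl1, Gsc and Lhx1 are transcription factors induced in the streak at high Nodal signalling. T (brachyury) is the classical marker of the streak and later of the notochord.

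After removal of cells with fewer than 500 detected genes or more than 10% mitochondrial counts, 2063 and 1353 DUX-pulsed cells and 2824 and 2636 control cells remained, 8876 of 10090 cells in all. The summed counts of unique molecular identifiers (UMIs, each standing for 1 captured transcript) were 65062824 and 36462169 in the DUX-pulsed libraries and 96344329 and 78167098 in the control libraries. The median cell held between 27260 and 30402.5 UMIs in the 4 libraries. The median mitochondrial share was 4.01% and 4.54% in the DUX-pulsed libraries and 6.22% and 6.42% in the control libraries, and its part in the results below was not tested. Across the 4 libraries, 8 cell barcodes occurred in more than 1 library.

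An entry in the RefSeq promoter table (GRCm38.p6) was found for 7 of the 10 genes. The 250 bases before the annotated start are printed for Eomes, Gsc, Lhx1 and Nodal, because these are the genes with an entry whose summed counts were lower in DUX-pulsed embryoid bodies by the test given below. They are written 5′ to 3′ on the strand of the gene, with matches to the searched motifs in capitals. Eomes (chr9:118477939-118478188, plus strand) and Nodal (chr10:61417722-61417971, plus strand) held no match, Gsc (chr12:104473237-104473486, minus strand) held TATAAA, and Lhx1 (chr11:84525535-84525784, minus strand) held CAGAC.
Eomes: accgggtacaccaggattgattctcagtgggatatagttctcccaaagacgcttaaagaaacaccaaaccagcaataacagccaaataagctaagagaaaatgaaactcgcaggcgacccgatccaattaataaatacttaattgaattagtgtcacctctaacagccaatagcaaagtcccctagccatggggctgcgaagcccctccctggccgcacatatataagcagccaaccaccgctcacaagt
Gsc: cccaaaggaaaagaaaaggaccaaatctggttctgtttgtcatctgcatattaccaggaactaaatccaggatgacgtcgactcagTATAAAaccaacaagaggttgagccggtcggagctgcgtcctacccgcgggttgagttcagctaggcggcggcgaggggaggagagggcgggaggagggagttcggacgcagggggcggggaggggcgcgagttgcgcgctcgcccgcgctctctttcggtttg
Lhx1: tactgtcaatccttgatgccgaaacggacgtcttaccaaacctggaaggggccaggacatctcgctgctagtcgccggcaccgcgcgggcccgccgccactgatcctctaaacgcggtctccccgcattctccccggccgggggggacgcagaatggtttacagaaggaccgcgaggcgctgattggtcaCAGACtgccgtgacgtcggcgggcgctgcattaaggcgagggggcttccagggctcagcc
Nodal: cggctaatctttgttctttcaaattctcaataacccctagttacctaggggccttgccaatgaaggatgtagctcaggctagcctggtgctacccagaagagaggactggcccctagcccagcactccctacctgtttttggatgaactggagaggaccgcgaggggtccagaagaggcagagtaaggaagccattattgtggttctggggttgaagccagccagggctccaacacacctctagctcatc

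The motifs were searched on both strands as fixed letters, namely AATNCACA for FOXH1, CAGAC and GTCTAGAC for SMAD proteins, TCACACCT for T-box factors, CTTTGAT for TCF/LEF factors, TAATTA for homeodomain factors and TATAAA for the TATA box. Of all 32851 promoter windows of the same length, CAGAC was present in 42.2%, TATAAA in 12.4%, TAATTA in 4.84%, CTTTGAT in 3.21%, AATNCACA in 3.18%, TCACACCT in 1.12% and GTCTAGAC in 0.167%. The capitals in Gsc lie 164 bases before the start and those in Lhx1 60 bases before it. The GC content of the windows was 46.4% for Eomes, 59.2% for Gsc, 64.8% for Lhx1 and 53.2% for Nodal, against a median of 52.4% over all windows. Of the other entries, the T window held no match, whereas the windows of Tdgf1 and Cer1 each held CAGAC and TAATTA.

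The first comparison asked how much of each transcript the whole culture held. Of the 10 genes, 5 were lower in DUX-pulsed embryoid bodies (Mixl1, Eomes, Gsc, Lhx1 and Nodal), none was higher in edgeR or DESeq2, at an unadjusted p under 0.05 either, and 5 did not pass the test (T, Tdgf1, Lefty1, Lefty2 and Cer1). Summed UMI counts of each library were compared with edgeR's quasi-likelihood test, with Benjamini-Hochberg adjustment over the 16140 genes tested and a threshold of 0.05. In that fit 11.1% of all genes tested were lower and 15.6% were higher in DUX-pulsed embryoid bodies. The median log2 fold change was -2.85 over the 10 genes, also with T set at its bound given below, and -0.00 over all genes tested. Mixl1, 1 of the 5, and T entered the fit only through their counts in control libraries, so that they could not have been called higher. Both DUX-pulsed libraries lay below both control libraries for 8 of the 10 genes (all but Lefty2 and Cer1), as they did for 34% of all genes tested. Levels in this comparison are normalised read counts (CPM, UMIs of a gene relative to all UMIs of the library) over library sizes scaled by the trimmed mean of M values (TMM). Sums over a culture cannot tell fewer expressing cells from less RNA per cell.

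Among the streak transcription factors, Mixl1, a homeodomain factor of the streak that is needed for endoderm formation, was almost absent from DUX-pulsed cultures. It was at 0.0638 and 0.0275 CPM in the DUX-pulsed libraries (4 UMIs and 1 UMI), against 8.89 and 5.52 CPM in the control libraries (848 and 454 UMIs). The fitted log2 fold change was -7.12 with a standard error (SE) of 0.49 and an edgeR adjusted p of 0.00221. Mixl1 lies at chr1:180693043-180697034 (mm10), within the same stretch of chromosome 1 as Lefty2 and Lefty1.

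Eomes, a T-box factor that specifies definitive endoderm and cardiac mesoderm, was at 1.5 and 2.78 CPM in the DUX-pulsed libraries and at 23.5 and 15.7 CPM in the control libraries. Its log2 fold change was -3.22 (SE 0.37, edgeR adjusted p = 0.00362). The gene (chr9:118478212-118486132) overlaps an antisense transcript, Gm33460, which the tables count separately. Gsc (goosecoid), a homeodomain repressor of the anterior streak and organizer, had 0.527 and 0.798 CPM in DUX-pulsed libraries and 9.30 and 4.33 CPM in control libraries. Its log2 fold change was -3.39 (SE 0.47, edgeR adjusted p = 0.00566).

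Lhx1, a LIM-homeodomain factor of anterior mesendoderm, differed more between replicates than the other 4 genes that passed. It had 0.543 CPM in DUX-pulsed replicate 1 and 3.08 CPM in DUX-pulsed replicate 2, against 21.7 and 11 CPM in the control libraries, and the groups did not overlap. The log2 fold change was -3.24 (SE 0.77, edgeR adjusted p = 0.0281), and it was -2.39 without DUX-pulsed replicate 1 and -4.90 without DUX-pulsed replicate 2. T, at chr17:8434423-8442496, had 0 UMIs in both DUX-pulsed libraries, where 3 UMIs would correspond to 0.0479 and 0.0825 CPM. Control replicate 1 held 113 UMIs of T and control replicate 2 held 11, or 1.19 and 0.134 CPM. Set against a floor of 3 UMIs over the DUX-pulsed group, T was at least 23.0-fold lower there, but the difference missed the threshold (edgeR adjusted p = 0.0543). Without DUX-pulsed replicate 1 or 2 the adjusted p was 0.0317 or 0.0281.

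Nodal itself, at chr10:61417972-61425338, had 1.84 and 3.69 CPM in DUX-pulsed libraries and 17.9 and 12.5 CPM in control libraries, with a log2 fold change of -2.48 (SE 0.38, edgeR adjusted p = 0.00738). Its co-receptor Tdgf1, at chr9:110939603-110946158, was the most abundant of the 10 by UMI count and had the smallest fold change. Tdgf1 had 27.7 and 27.3 CPM in DUX-pulsed libraries and 43.3 and 35.1 CPM in control libraries. The groups did not overlap, but the log2 fold change of -0.51 (SE 0.16) did not pass the test (edgeR adjusted p = 0.0607).

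The secreted inhibitors were low in both groups, and none of the 3 passed the test. Lefty1 had 0.990 and 0.688 CPM in DUX-pulsed libraries and 4.48 and 1.15 CPM in control libraries (log2 fold change -1.73, SE 0.65, edgeR adjusted p = 0.102). Lefty2 had 0.782 and 0.110 CPM in DUX-pulsed libraries and 3.16 and 0.535 CPM in control libraries (-1.95, SE 1.02, edgeR adjusted p = 0.205). Cer1, an antagonist of Nodal, BMP and Wnt ligands made in anterior endoderm, had 0.0798 and 0.385 CPM in DUX-pulsed libraries and 1.03 and 0.267 CPM in control libraries (-1.61, SE 0.90, edgeR adjusted p = 0.233). For all 3, control replicate 1 held most of the control counts, and the DUX-pulsed and control ranges of Lefty2 and Cer1 overlapped. Leaving out control replicate 2 took Lefty1 and Lefty2 past the threshold (edgeR adjusted p = 0.0064 and 0.0319), leaving out DUX-pulsed replicate 1 did so for Lefty2 (0.0185), and leaving out DUX-pulsed replicate 2 did so for Cer1 (0.042). The genes within 5 Mb of each of the 10 had a median log2 fold change between -0.10 and 0.08.

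**Figure D1:**
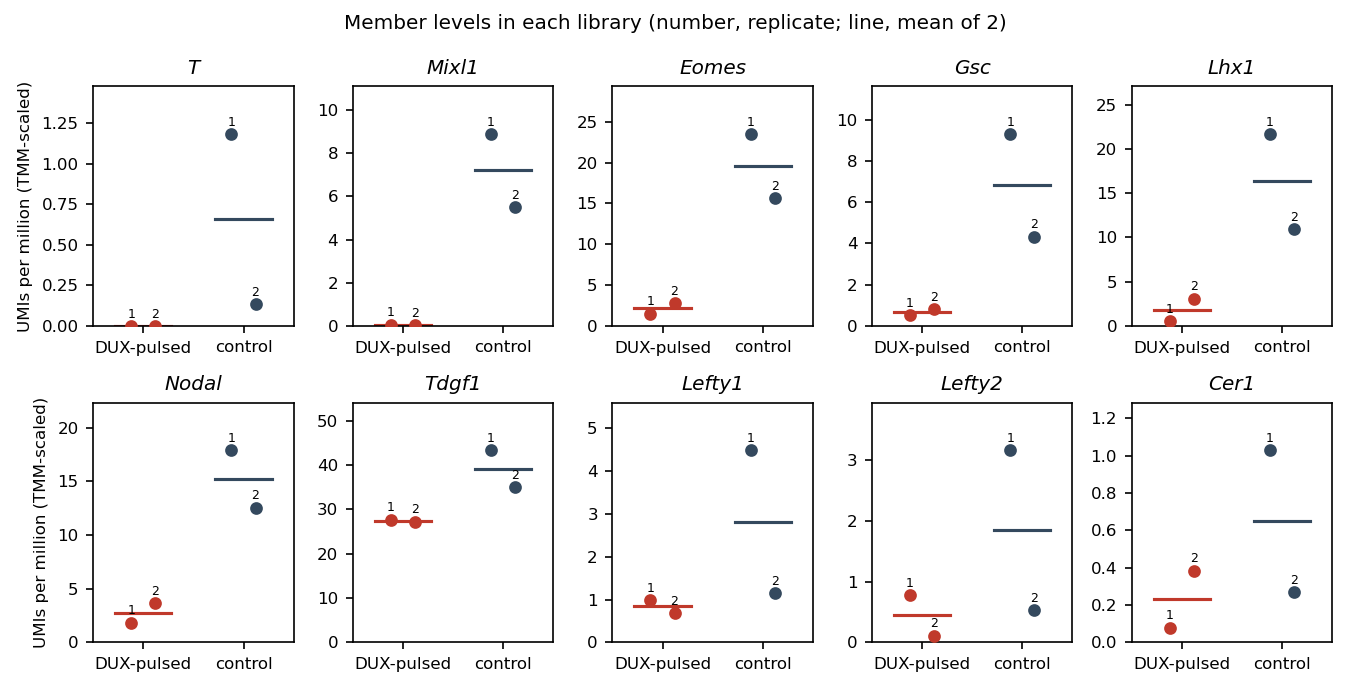
Normalised counts (CPM) of the 10 genes in each library (linear axes from 0, 1 point per library numbered by replicate, DUX-pulsed left of control, lines at the mean of 2). The DUX-pulsed points of Mixl1, Eomes, Gsc, Lhx1 and Nodal all lie below the control points, whereas those of Lefty2 and Cer1 overlap them.

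The number of cells in which each transcript was found was also compared. Each cell with at least 5000 UMIs was thinned to 5000 UMIs, the cells with at least 1 UMI of a gene were counted in each library, and these numbers were compared with edgeR's quasi-likelihood test over 12999 genes. In that comparison 14.4% of genes were lower and 10.6% were higher in DUX-pulsed cultures, and 7 of the 10 genes had enough cells to be tested. Mixl1, Eomes, Gsc, Lhx1 and Nodal were lower, but of the 7 only Nodal and Tdgf1 reached 10 cells in DUX-pulsed libraries. Mixl1, Eomes, Gsc, Lhx1 and Lefty1 passed this filter through control libraries alone, which fixed their direction, so that their values describe the cells and lend no support to the test above. Cells with a UMI of Eomes made up 0.420% and 0.567% of thinned DUX-pulsed cells and 6.31% and 4.25% of thinned control cells (log2 ratio -3.46, SE 0.36, edgeR adjusted p = 0.00262). Nodal was detected in 0.788% and 1.70% of thinned DUX-pulsed cells and in 6.10% and 4.44% of thinned control cells (-2.19, SE 0.37, edgeR adjusted p = 0.0093).

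With the direction fixed in that way, the log2 ratio of detected cells was -4.80 for Mixl1 (SE 0.74, edgeR adjusted p = 0.00706), -3.55 for Lhx1 (SE 0.61, edgeR adjusted p = 0.0095) and -2.05 for Gsc (SE 0.54, edgeR adjusted p = 0.0369). When control replicate 1 or control replicate 2 was left out only 1 of the 5 calls was made, that of Nodal, since the other 4 genes then had too few cells to be tested, and the Gsc call was lost without DUX-pulsed replicate 1 (edgeR adjusted p = 0.149). Tdgf1 did not follow this pattern. It was detected in 5.52% and 5.95% of thinned DUX-pulsed cells and in 5.77% and 4.30% of thinned control cells (log2 ratio 0.18, SE 0.22, edgeR adjusted p = 0.586). Without thinning, Eomes was detected in 2.57% and 1.55% of DUX-pulsed cells and 15.4% and 11.5% of control cells, and Tdgf1 in 8.68% and 8.87% of DUX-pulsed cells and 9.49% and 6.34% of control cells.

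For some genes, detected cells also differed in how many transcripts they held. The mean per detected cell was lower in both DUX-pulsed libraries for Mixl1, Gsc, Nodal, Tdgf1 and Lefty1. For Eomes, Lhx1, Lefty2 and Cer1 the ranges of the 2 groups overlapped. Cells with Eomes held a mean of 1.77 and 4.81 UMIs in DUX-pulsed libraries and 5.14 and 4.26 in control libraries. These means were not tested. Cells with Mixl1 held 1 UMI each in both DUX-pulsed libraries and a mean of 4.96 and 4.73 UMIs in the control libraries, where 1 cell reached 37. Cells with T existed only in control libraries, 19 in replicate 1 and 7 in replicate 2, with a mean of 5.95 and 1.57 UMIs. Most of these transcripts came from few cells, since 1 cell of control replicate 1 held 53 of its 113 T UMIs.

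To see which cells carried the transcripts, the cells of all 4 libraries were clustered together and clusters were named only from lists of marker genes. Cluster 22 stood out, with 1 and 4 DUX-pulsed cells and 90 and 40 control cells, and was led by Trh, Lhx1, Gsc, Mixl1 and Fgf8. It met the rule for no cell type list and stays unnamed. Because the genes described here helped to form this cluster, their levels in it are a description. In its control cells Lhx1 reached 269 and 228 CPM and Eomes 232 and 271 CPM, of all UMIs in the cluster. Mixl1 was at 129 and 184 CPM, Gsc at 148 and 145 CPM, Nodal at 122 and 177 CPM and Cer1 at 16.6 and 8.62 CPM. In each of these 6 genes the control range in cluster 22 lay above that of every other one of the 14 classes with enough control cells.

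Cluster 22 held 2.38% of control cells but 72.8% of the control UMIs of Mixl1, 77.6% of those of Gsc, 78.3% of those of Cer1, 57.0% of those of Lhx1, 45.2% of those of Eomes and 33.0% of those of Nodal. T was nearly absent from it, with 3 of 124 control UMIs. Of its 130 control cells, 99.2% had a UMI of Sox17 and 96.9% one of Foxa2, transcription factors of definitive endoderm, and 89.2% had one of Cfc1, the second EGF-CFC co-receptor. Among all kept control cells these shares were 60.8%, 67.3% and 26.5%. The marker list closest to cluster 22 was not that of definitive endoderm but that of primed epiblast, with 5 of 10 markers raised. The 5 DUX-pulsed cells of cluster 22 all had Eomes and Sox17 transcripts and none had Mixl1. A single one of them, in replicate 1, held 31 of the 53 Lefty2 UMIs of the DUX-pulsed group.

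**Figure D2:**
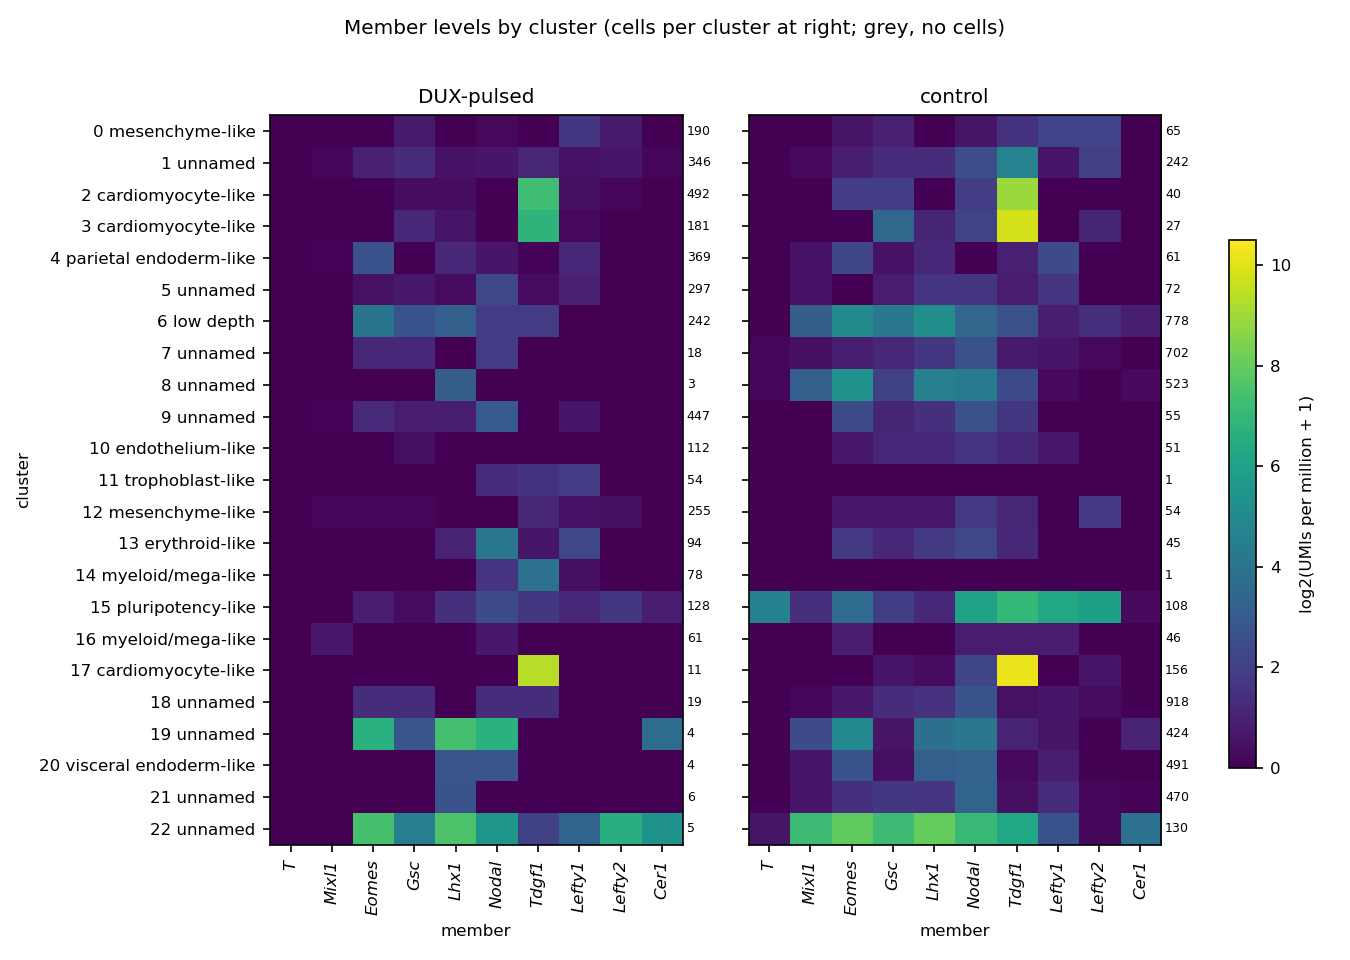
Level of the 10 genes in the clusters, in DUX-pulsed and control cells, as log2(CPM + 1) of all UMIs in a cluster, with the number of cells at the right. Control cells of cluster 22 carry Mixl1, Eomes, Gsc, Lhx1, Nodal and Cer1, cluster 15 (pluripotency-like) carries T, Lefty1 and Lefty2, and the cardiomyocyte-like clusters carry Tdgf1.

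A pair of larger clusters joined cluster 22 in carrying these transcripts. Cluster 8 was led by Dnmt3b and held 3 DUX-pulsed and 523 control cells, and cluster 19 was led by Col9a3 and Ifitm1 and held 4 DUX-pulsed and 424 control cells. Clusters 8, 19 and 22 together made up 0.351% of the DUX-pulsed and 19.7% of the control cells. They accounted for 95.9% of the control UMIs of Mixl1, 90.8% of those of Eomes, 86.1% of those of Lhx1, 85.2% of those of Gsc, 96.7% of those of Cer1 and 62.0% of those of Nodal. The same clusters held 9.09% of the control UMIs of Tdgf1, 9.20% of those of Lefty1, 5.65% of those of T and 0.290% of those of Lefty2.

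When the cells of clusters 8, 19 and 22 were taken out of all libraries, 3 of the 5 genes still passed, in a fit in which 8.48% of 15890 genes tested were lower and 12.2% higher. Mixl1, which again had enough counts in control libraries only, had a log2 fold change of -3.01 (edgeR adjusted p = 0.0240), Lhx1 of -2.43 (0.00692) and Nodal of -1.79 (0.0143). Eomes, at -1.08, and Gsc, at -1.32, no longer passed the test (edgeR adjusted p = 0.115 and 0.0602). Without these clusters Tdgf1 passed at -0.84 (edgeR adjusted p = 0.0213) and Lefty2 at -3.61 (0.0474). The choice of these 3 clusters was made after their values were seen.

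**Figure D3:**
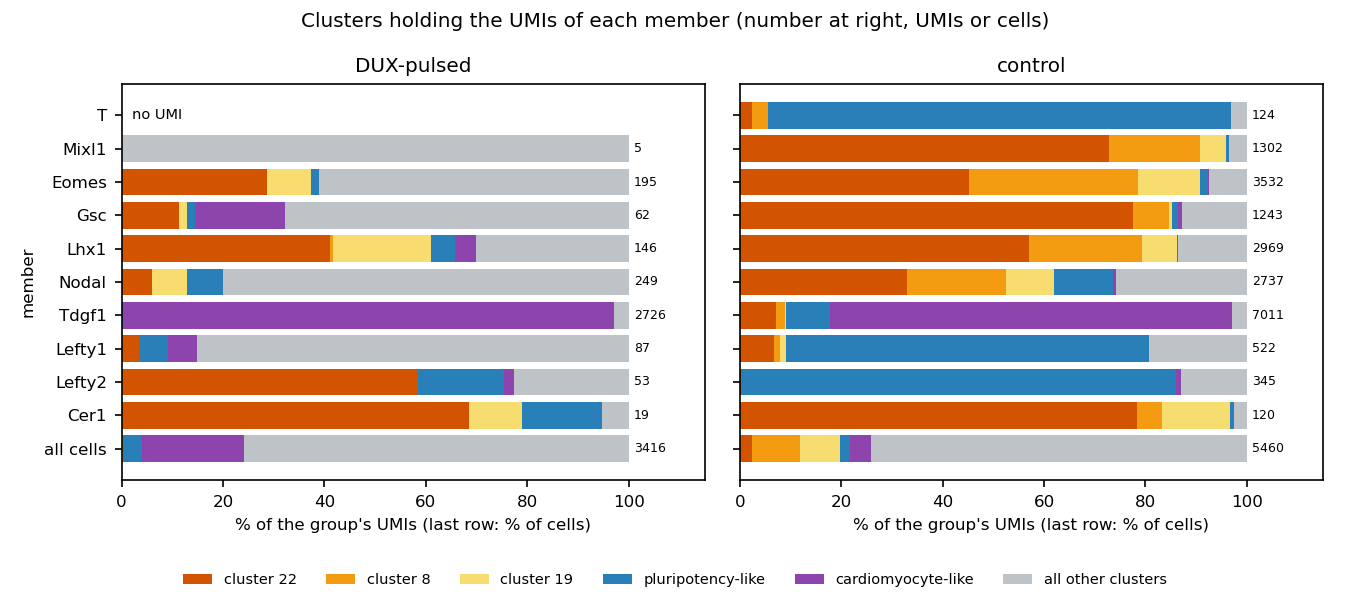
Share of each gene's UMIs, in percent, that came from cluster 22, cluster 8, cluster 19, the pluripotency-like class, the cardiomyocyte-like class and all other cells, DUX-pulsed left of control, with the share of cells in the lowest bar and the number of UMIs or cells at the right. In control cultures clusters 8, 19 and 22 hold 95.9% of Mixl1 UMIs and 90.8% of Eomes UMIs but 19.7% of the cells.

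In single control cells the streak genes and Nodal were found together. Of 267 control cells with a Mixl1 UMI, 82.4% also had Eomes, 77.2% Nodal, 70.4% Lhx1 and 42.3% Gsc, while Eomes was detected in 13.5% and Nodal in 18.1% of all kept control cells. The same 267 cells had Foxa2 in 94.4% and Sox17 in 94.0%, against 67.3% and 60.8% of all kept control cells. Of 50 control cells with Cer1, 43 had Eomes. In cells thinned to 5000 UMIs these shares were lower, with Eomes in 55.8% and Nodal in 38.9% of the 95 control cells with Mixl1, so that they depend on depth.

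T was detected in 26 control cells, of which 21 had Nodal, 21 Foxa2, 14 Eomes, 13 Sox17, 12 Pou5f1, the pluripotency factor OCT4, 10 Lefty2 and 7 Mixl1. Of the 267 control cells with Mixl1, 7 had a T transcript, or 2.62%, while T was found in 0.476% and Mixl1 in 4.89% of all kept control cells. Of the 66 control cells with Lefty2, 34.8% had Lefty1 and 37.9% had Pou5f1. These are counts of detected transcripts and carry no test.

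T, Lefty1 and Lefty2 were highest in a pluripotency-like class, in which 12 of 17 pluripotency markers were raised. This class, cluster 15, held 95 and 33 DUX-pulsed cells and 73 and 35 control cells, and Foxe1, Wnt6 and Nkx2-3 were also among its leading genes. Lefty1 was itself a leading gene of the cluster, so that its level there is a description. In control cells of the class T was at 30.7 and 4.33 CPM, Lefty1 at 96.2 and 27.4 CPM and Lefty2 at 79.9 and 13.0 CPM, so that control replicate 1 was the higher library for each. In DUX-pulsed cells of the class T had 0 UMIs, Lefty1 had 5 UMIs and Lefty2 had 9, all of them in replicate 1. Pooled over both control libraries, the class held 91.1% of the UMIs of T, 71.5% of those of Lefty1 and 85.8% of those of Lefty2. These shares mostly reflect control replicate 1, where they were 94.7%, 78.5% and 92.4%. In control replicate 2 the class held 54.5% of the T UMIs, 38 of 95 Lefty1 UMIs and 40.9% of the Lefty2 UMIs. Most Lefty1 and Lefty2 UMIs of that library thus lay outside the class.

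Within this class 4 of the 10 genes could be tested, and 2 were lower in DUX-pulsed cells, in a fit where 0.863% of the 10200 genes tested were lower and 1.19% higher. Tdgf1 was at 3.12 and 0 CPM in DUX-pulsed cells and at 161 and 35.4 CPM in control cells (log2 fold change -5.60, SE 0.97, edgeR adjusted p = 0.0403). Lefty1 was at 1.73 and 0 CPM in DUX-pulsed cells and at 96.2 and 27.4 CPM in control cells (-5.73, SE 0.91, edgeR adjusted p = 0.0358). Both genes, like Lefty2, passed the filter on low counts through control cells alone, so that they could not have been called higher. Both calls were lost without DUX-pulsed replicate 2 (edgeR adjusted p = 0.129 for Tdgf1 and 0.104 for Lefty1), and without control replicate 1 or 2 the genes had too few counts to be tested. Nodal, at 4.85 and 3.52 CPM in DUX-pulsed cells and 83.6 and 18.8 CPM in control cells, did not pass (-3.67, edgeR adjusted p = 0.0524), nor did Lefty2 (-4.56, edgeR adjusted p = 0.0637).

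The pluripotency-like class was not of 1 kind. When it was clustered again, a step added after its values were seen, 1 of 6 sub-clusters was led by Dppa5a, Dppa3 and L1td1, with Tdgf1, Lefty1, Lefty2 and Pou5f1 among its leading genes. It held 1 and 0 DUX-pulsed cells and 41 and 3 control cells. Its control cells held 106 and 6 UMIs of T, 334 and 37 of Lefty1, 278 and 17 of Lefty2, 555 and 45 of Tdgf1 and 279 and 15 of Nodal. In control replicate 1 this was 93.8% of all UMIs of T, 78.2% of those of Lefty1 and 92.4% of those of Lefty2. In control replicate 2 the shares were lower, at 54.5% for T, 38.9% for Lefty1 and 38.6% for Lefty2. The other sub-clusters were led by genes such as Six3 and Six6, Tac2, Afp and Nkx2-1, Tlx1, or Gap43. How much of the within-class differences came from this makeup was not tested.

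Tdgf1 had its highest level in neither of these groups of cells but in cardiomyocyte-like cells, formed by clusters 2, 3 and 17. In the mouse heart field Tdgf1 is known to be expressed in early and outflow-tract myocardium and to be needed for cardiomyocyte formation. The class held 404 and 280 DUX-pulsed cells and 134 and 89 control cells, or 684 of 3416 and 223 of 5460. It supplied 96.8% of all Tdgf1 UMIs in DUX-pulsed cultures and 79.2% in control cultures.

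Within cardiomyocyte-like cells Tdgf1 was lower in DUX-pulsed cultures, at 170 and 127 CPM, against 1031 and 1146 CPM in control cultures. The log2 fold change was -2.77 (SE 0.23, edgeR adjusted p = 2.91e-09), in a class in which 8.33% of 11255 genes tested were lower and 9.39% higher. A Tdgf1 UMI was found in 41.1% and 38.2% of DUX-pulsed and in 88.1% and 85.4% of control cardiomyocyte-like cells, at median depths of 23772 and 23546 UMIs. Free RNA was not measured, and classes not named for heart genes were taken as a guide to its level. In mesenchyme-like cells the share was 1.57% of DUX-pulsed and 3.36% of control cells, at median depths of 32150 and 32000 UMIs. It was 0% of DUX-pulsed and 3.92% of control endothelium-like cells, and 1.06% and 2.22% of erythroid-like cells.

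The 2 groups filled the cardiomyocyte-like class from different clusters. Clusters 2 and 3 held 492 and 181 of the 684 DUX-pulsed cells, whereas cluster 17, of which Tdgf1 was itself a leading gene, held 156 of the 223 control cells. Within cluster 2, led by Tnni3, Myl3 and Myl7, Tdgf1 was at 189 and 113 CPM in DUX-pulsed cells (median depth 21623 UMIs) and at 482 and 467 CPM in the 40 control cells (median depth 2652.5 UMIs). Within cluster 3, led by Myl2, it was at 138 and 76.3 CPM in DUX-pulsed cells and at 868 and 960 CPM in the 27 control cells. In cluster 17 the control cells had 1148 and 1210 CPM, and the 7 and 4 DUX-pulsed cells had 205 and 1505 CPM, so that the groups overlapped there. When the cells were clustered without the 10 genes and the pathway genes, the difference within cardiomyocyte-like cells was -2.76 (edgeR adjusted p = 2.58e-09).

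**Figure D4:**
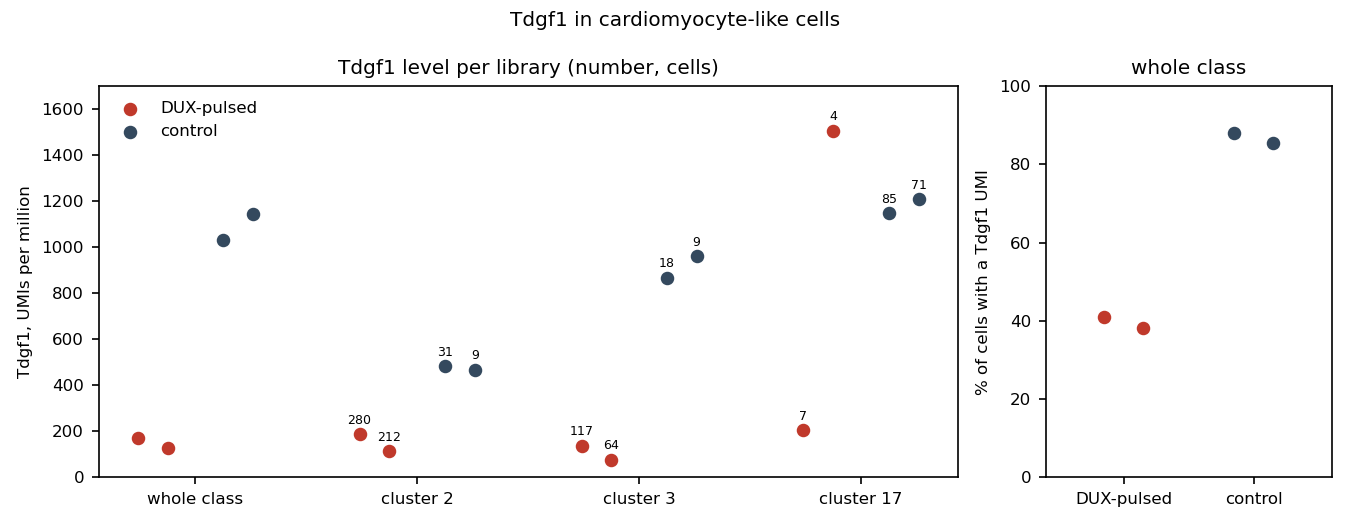
Tdgf1 level, in CPM, in cardiomyocyte-like cells of each library and in each of the clusters that form the class (numbers give cells), and at the right the percentage of cells of the class with a Tdgf1 UMI, 1 point per library, DUX-pulsed left of control. The class means are 149 and 1088 CPM, and the groups overlap only in cluster 17, where the DUX-pulsed libraries hold 7 and 4 cells.

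Outside these classes few tests of the 10 genes were possible. In cluster 1, an unnamed cluster led by Lhx2, Rgs5 and Lrrn3, Tdgf1 was at 0.832 and 1.94 CPM in DUX-pulsed cells and at 26.6 and 20.4 CPM in control cells (log2 fold change -4.07, SE 0.43, edgeR adjusted p = 0.00519). There 1.98% of 10865 genes tested were lower and 2.83% higher. Tdgf1 reached 10 UMIs there in control cells alone, which fixed its direction, and the test could not be made without control replicate 1 or without control replicate 2. Nodal could be tested in clusters 5 and 9, led by Itih2 and by Ghrl, and passed in neither (7.5% and 12.1% of genes tested passed there in either direction, log2 fold change 1.12 and 0.57, edgeR adjusted p = 0.49 and 0.573). In the low-depth cluster, with a median of 1072.5 UMIs, Lhx1 was the only one of the 10 with enough counts (-1.87, edgeR adjusted p = 0.333, where 3.36% of genes tested passed in either direction). In mesenchyme-like cells none of the 10 had enough counts for the fit.

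In DUX-pulsed cultures cluster 22 had too few cells to be ranked. The order of classes therefore cannot be compared between the groups for the genes that were highest there in control cultures. Among the 11 classes with enough DUX-pulsed cells, Nodal had its highest mean in erythroid-like cells, at a mean of 16.9 ± 13.7 CPM (SD, n = 2), followed by cluster 9 at 6.99 ± 2.33 CPM, and the ranges of the classes overlapped. The higher erythroid-like library, at 26.6 CPM, held 24 Nodal UMIs in 4 cells. The few DUX-pulsed cells of cluster 22 had 29.6 and 54.6 CPM and those of cluster 19 had 0 and 125 CPM. Tdgf1 was highest in cardiomyocyte-like cells, at 149 ± 30.9 CPM, with no overlap with the next class, myeloid-like cells at 7.36 ± 5.61 CPM. T had no UMI in any class, and for the other 7 genes the range of the highest class overlapped that of the next.

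The genes most like each of the 10 were found by the correlation of log2(CPM + 1) over 55 combinations of class and library, which come from 4 libraries and are not independent. Among the 10, Eomes was most like Lhx1 (Pearson's r = 0.90), Mixl1 most like Cer1 (0.89) and T like Lefty2 (0.80) and Lefty1 (0.79). Of the other genes, Eras (0.86) and Fgf5 (0.85) were among the closest to Eomes, and Stk32a (0.88), Erich2 (0.84) and Defa30 (0.82) came closest to Mixl1. Stk32a (0.84) and Lhx1os (0.84), a transcript named for its neighbour, were among the closest to Lhx1. For Gsc they were Erich2 (0.72), Fgf5 (0.70) and Trh (0.69), and for Nodal they were Trh (0.76), Coch (0.75) and Vrtn (0.75).

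T was most like Ooep (0.85), Nanog (0.84) and Pou5f1 (0.82), Lefty1 most like Dnmt3l (0.81), Nanog (0.68) and Fbxo15 (0.67), and Lefty2 most like Jph4 (0.76), Mapk8ip2 (0.73) and Pou5f1 (0.73). Nanog and Pou5f1 are core pluripotency factors. Cer1 was most like Cadps2 (0.81), Erich2 (0.73) and Stk32a (0.73). Tdgf1 was most like Fgf8 (0.87), a growth factor of the streak and the heart field, Fam81a (0.83) and Lrrc2 (0.80).

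The rest of the pathway was read from 5 lists of 73 genes, of which 71 were in the tables and 67 were tested in the whole-culture fit. Of these 67, 15 were lower and 11 higher in DUX-pulsed cultures and 41 did not pass, beside 11.1% lower and 15.6% higher among all genes tested, so that the share of higher genes was near that of all genes. Among 7 ligands, processing enzymes and co-receptors, 1 was lower and 3 were higher, with a median log2 fold change of 0.91. Cfc1 (Cryptic), the EGF-CFC co-receptor of left-right patterning, was at 5.11 ± 0.821 CPM in DUX-pulsed libraries and 30.5 ± 5.63 CPM in control libraries (SD, n = 2 each, log2 fold change -2.58, SE 0.21, edgeR adjusted p = 0.0025). Inhba, the activin A subunit and so a ligand for the same receptors, was at 1.44 ± 0.214 CPM in DUX-pulsed libraries and 0.133 ± 0.0339 CPM in control libraries (3.4, SE 0.39, edgeR adjusted p = 0.00369). The genes around Inhba were also higher, with a median log2 fold change of 1.05 within 5 Mb. Furin and Pcsk6, proprotein convertases that cleave the Nodal precursor, were also higher (0.91 and 1.33, edgeR adjusted p = 0.0245 and 0.0221).

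Of the receptors and intracellular transducers, none of the 11 tested (activin receptors, SMAD2, SMAD3, SMAD4, Foxh1 and their partners) passed in edgeR's test or in DESeq2, and 1 of the 11 had an unadjusted p under 0.05 in edgeR. The log2 fold changes ran from -1.76 for Foxh1, the DNA-binding partner of SMAD2 (0.152 ± 0.0572 CPM in DUX-pulsed and 0.494 ± 0.235 CPM in control libraries, edgeR adjusted p = 0.0666), to 1.54 for Acvr1c, the receptor ALK7. Trim33, a SMAD4-binding ubiquitin ligase, had a log2 fold change of -0.38 (edgeR adjusted p = 0.13). Without DUX-pulsed replicate 2, Foxh1 passed (-2.13, edgeR adjusted p = 0.0440). Of 15 inhibitors and feedback genes, none was lower in edgeR or DESeq2, 2 were lower at an unadjusted p under 0.05 in edgeR, and 2 were higher. The higher genes were Ski, a repressor of SMAD-dependent transcription (52.8 ± 7.74 CPM in DUX-pulsed and 26.0 ± 0.51 CPM in control libraries, 1.02, edgeR adjusted p = 0.00788), and Fstl3, an activin-binding follistatin-like protein (4.29 ± 0.0405 CPM in DUX-pulsed and 1.72 ± 0.14 CPM in control libraries, 1.32, edgeR adjusted p = 0.0112). The median within 5 Mb of Ski was 0.93.

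Other streak and nascent mesoderm factors went both ways, with 7 of 17 lower, 4 higher and a median log2 fold change of -0.96. Cdx2, a posterior homeodomain factor, was at 27.3 ± 2.54 CPM in DUX-pulsed and 75.5 ± 3.74 CPM in control libraries (-1.47, SE 0.15, edgeR adjusted p = 0.00277), and the genes within 5 Mb of it had a median of -0.51. Hand1, a factor of lateral and extraembryonic mesoderm and of the heart, was at 112 ± 23.1 CPM in DUX-pulsed and 20.1 ± 4.11 CPM in control libraries (2.47, SE 0.23, edgeR adjusted p = 0.00259). Named after their values were seen, the other lower genes were Wnt3, Fgf5, Sp5, Nkx1-2, Evx1 and Cdx4, the last with 0 UMIs in both DUX-pulsed libraries, and the other higher genes were Kdr, Lef1 and Snai1.

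Of 17 node, notochord and anterior endoderm genes, 7 were lower and 2 higher, with a median log2 fold change of -0.65. Foxa2, a forkhead factor of node and endoderm, was at 39.3 ± 3.59 CPM in DUX-pulsed and 101 ± 8.93 CPM in control libraries (-1.37, SE 0.16, edgeR adjusted p = 0.00362). Dkk1, a secreted Wnt inhibitor of anterior mesendoderm, was at 29.8 ± 4.83 CPM in DUX-pulsed and 77.9 ± 1.88 CPM in control libraries (-1.39, SE 0.17, edgeR adjusted p = 0.00402). Named after their values were seen, Chrd, Otx2, Sfrp5, Frzb and Gata4 were also lower. The 2 higher genes are not named here, and the log2 fold changes of the list ran from -2.42 to 1.63. Without clusters 8, 19 and 22, 8 of the 67 genes were lower in place of 15.

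**Figure D5:**
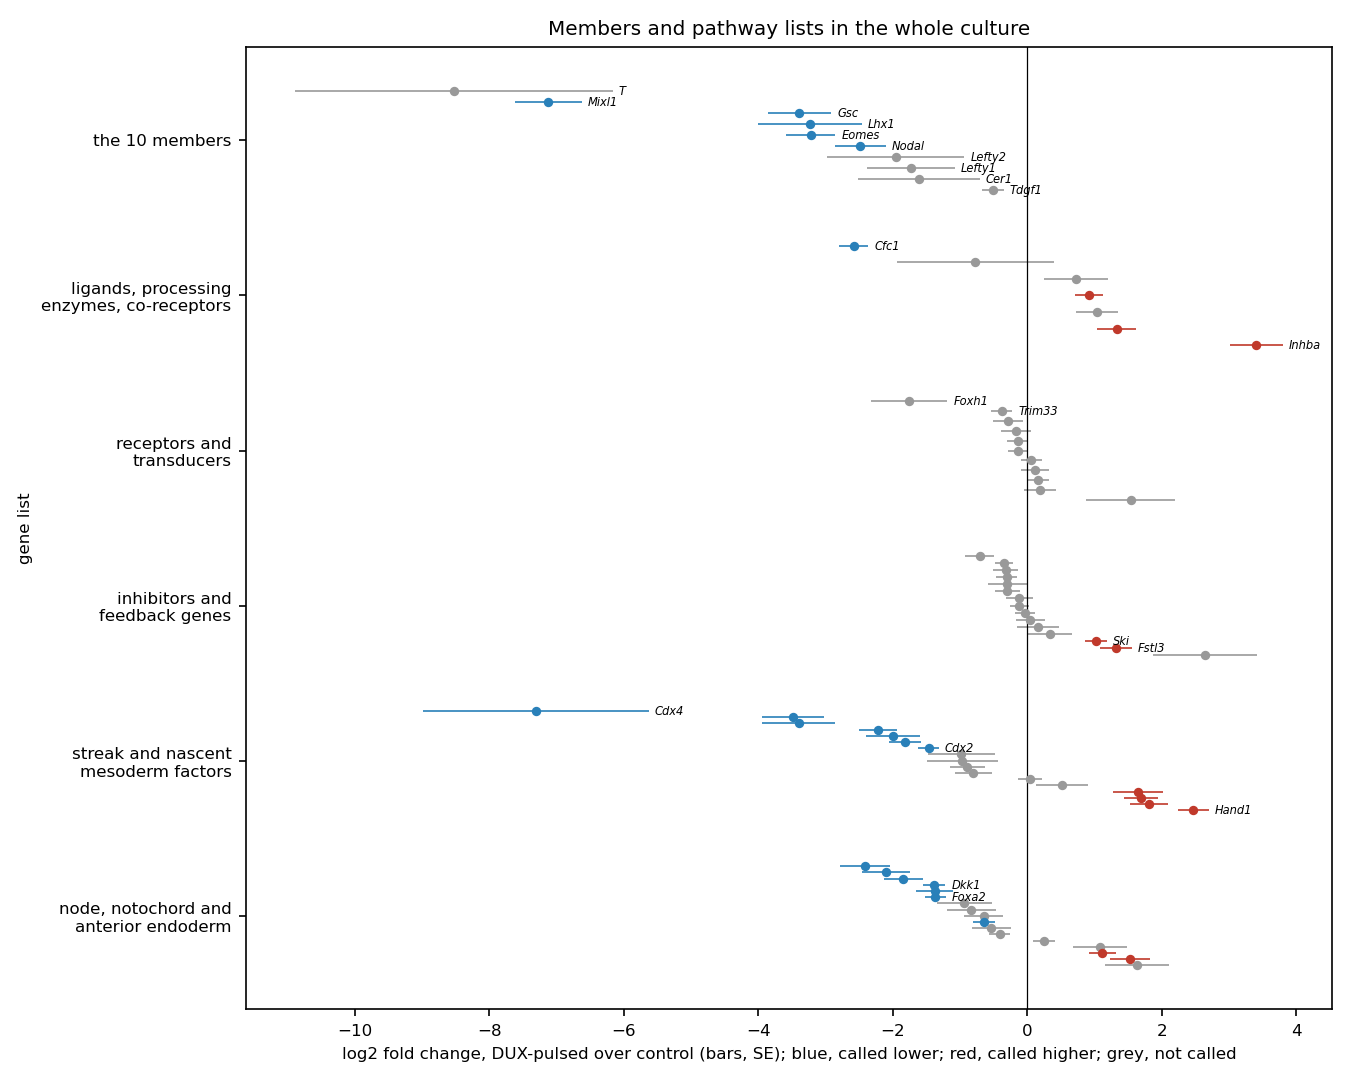
Log2 fold change, DUX-pulsed over control, of the 10 genes and of the genes in each pathway list (1 point per gene, with names for the 10 genes, the 2 genes with the smallest p of each list and genes with 0 UMIs in DUX-pulsed libraries, bars show the SE, blue for lower and red for higher at an edgeR adjusted p under 0.05, grey for not passed). The receptor list lies between -1.76 and 1.54, all in grey, and the values of T and Cdx4 rest on 0 UMIs in DUX-pulsed libraries.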

How the data were processed

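UMI count matrices of 4 libraries, 2 DUX-pulsed and 2 control, were used as the authors deposited them. The counts are whole numbers per gene and cell, and replicate numbers were read from the endings of the cell names. Per the submitters' processing notes they were made with Cell Ranger 2.2.0 and STAR on mm10. Gene coordinates are from GENCODE vM21 (GRCm38).

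Kept cells had 500 detected genes or more and no more than 10% mitochondrial counts. Scrublet called 27 doublets, too few to be relied on. No cells were removed as doublets, and removing the 395 cells with the highest scores was an alternative. Counts were summed per library, or per library and cell class with at least 20 cells in each library, and genes reaching 10 counts in 2 libraries and 40 in all were tested with edgeR 4.0.16 (glmQLFit and glmQLFTest, TMM). DESeq2 1.42.0 was an alternative. Benjamini-Hochberg adjustment ran over all genes tested. With 2 libraries against 2 no exact permutation test can pass, so p-values come from fits across genes. Fits that leave out clusters or the pluripotency-like class, and the sub-clusters, were added after the data were seen.

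Cells were clustered with scanpy 1.11.5 (2000 variable genes, 30 components, 15 neighbours, Leiden resolution 1). A cluster was named from a marker list where at least 4 of its 30 leading genes came from that list and at least 50% of the list's detected markers were raised. CPM in a class or cluster are relative to all its UMIs, without TMM. The named genes were all 10 genes, the 2 with the smallest p of each list, and the 3 most like each gene, of which some are not reported here. The genes, marker lists and pathway lists were chosen with earlier results of these data known.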

Additional observations from a re-analysis of the deposited data

How the results depend on the processing

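Lhx1 and Nodal kept their direction and their call in the whole culture under every alternative that tested them. Mixl1 kept its call too, with a direction fixed by the filter in the test used, and Eomes and Gsc under all but those named below. Of 604 alternative values, for single genes and for the number of genes called in each list, 545 stayed the same. That means direction and side of the threshold for a gene, and a number within a fixed ratio for a list. Among single genes 31 values newly passed, 11 no longer passed and 3 changed sign, and 14 list numbers moved beyond that ratio. Class levels and co-detection shares are not in this total. The class levels of Mixl1, Eomes, Gsc, Lhx1, Nodal and Cer1 and several co-detection shares moved by more than the spread between control libraries. Among the 10 genes, 5 were lower, against 8 with DESeq2 and 9 with the replicate block, and 4 to 7 with 1 library left out. The labels give same-numbered libraries nothing in common but the number. The replicate differences of the 2 groups were correlated (r = 0.47 over 16140 genes). With 2 pairs this cannot tell whether same-numbered libraries were handled together, which was not tested. Over all genes, 1784 were lower, with 3381 under the replicate block, 894 under the stricter cell filter (1000 genes or more, up to 5% mitochondrial counts) and 754 to 2158 with 1 library left out (754 without control replicate 2 and 881 without control replicate 1). Likewise 2522 were higher, with 3803 under the block, 1148 under the stricter filter and 1380 to 2814 with 1 library left out. Pathway genes lower numbered 15, with 28 under the block and 8 without clusters 8, 19 and 22, and those higher numbered 11, with 7 to 14 with 1 library left out. Genes lower by detected cells numbered 5, with 1 when at least 2 UMIs were asked for and 1 to 5 with 1 library left out.

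The log2 fold change of Lefty2 changed sign to 0.55 without the pluripotency-like class, and that of Tdgf1 in detected cells (0.18) to -0.0769 at 2 UMIs, and between -0.0144 without control replicate 2 and 0.411 without control replicate 1. Gsc no longer passed under the stricter filter (-2.11) or without cluster 22 (-1.46), and neither Eomes nor Gsc passed without clusters 8, 19 and 22. T and Mixl1 could not be tested with a control library left out. T passed under 7 of 11 alternatives, and under the block so did Foxh1 and Trim33, 2 of the receptor list. Tdgf1 passed without TMM, with DESeq2, under the stricter filter (-1.78) and under the block. Within the pluripotency-like class 2 genes were lower, with 4 under the block and with clustering without the 10 genes, and 0 to 4 with 1 library left out. In cluster 1 it was 0 to 1. Clustering without the 10 genes and pathway genes split the 130 control cells of cluster 22 into groups of 76 and 54, and the highest control level of a class became 28.5 CPM for Mixl1, 67.5 for Eomes, 22.6 for Gsc, 51.6 for Lhx1, 45.8 for Nodal and 3.08 for Cer1. The cause of these changes was not tested. Thinning to 5000 UMIs lowered the depth and also left out cells with fewer UMIs. Eomes was then found in 55.8%, Lhx1 in 45.3% and Nodal in 38.9% of the 95 control cells with Mixl1. Few cells with Cer1 or T remained, with Eomes in 41.7% of 12 control cells with Cer1 and Nodal in 25.0% of 4 with T. T, Lefty2 and Cer1 had at most 113, 301 and 98 UMIs in a library, which limits the precision of their values.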

Other observations

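Cells outside the filter, 175 and 255 from the DUX-pulsed libraries and 395 and 389 from the control libraries, were left out of the main comparisons. They entered only the alternative fit of the whole culture on all deposited cells. Their summed counts held Mixl1 at 0 and 0.735 CPM in DUX-pulsed cells and at 12.6 and 6.84 CPM in control cells. Eomes was at 1.69 and 1.47 CPM in DUX-pulsed and at 24.0 and 24.1 CPM in control cells, and Nodal at 0.843 and 0.735 CPM in DUX-pulsed and at 23.2 and 17.5 CPM in control cells. Tdgf1 was at 28.7 and 25.0 CPM in DUX-pulsed cells and at 37.4 and 19.1 CPM in control cells, so that these ranges overlapped. T, with 0 UMIs in both DUX-pulsed libraries, had 2 and 3 UMIs in control cells.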
